A study of Mus musculus and Sus scrofa with 30 samples.

Results

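The vitamin K cycle and its products were followed through 9 genes, taken by symbol from the authors' tables: Vkorc1, Vkorc1l1, Ggcx, Gas6, Pros1, Mgp, Aifm2, Axl and Nqo2. Each symbol matched 1 row among 24843 mouse genes and 1 among 34307 pig genes, so 18 of 59150 rows are described here. Bulk RNA-seq libraries came from 2 cell systems on day 5 of fat-cell induction. The mouse line 3T3-L1 consists of embryonic fibroblasts that can turn into adipocytes. Porcine DFAT cells are mature subcutaneous fat cells that have lost their lipid and returned to a proliferating, fibroblast-like state. In each system there were 5 groups of 3 libraries: DMSO as vehicle, dicoumarol, magnolol (a lignan from magnolia bark), dicoumarol with magnolol (here the combination), and rosiglitazone (an agonist of PPARγ, the master regulator of adipocytes). Every 3T3-L1 group, vehicle included, received insulin at 0.75 µg/mL, IBMX at 37.5 µM and dexamethasone at 75 nM in 10% serum. Every DFAT group was kept in 2% serum with biotin at 20 µM, pantothenate at 10 µM, IBMX at 12.5 µM and dexamethasone at 0.5 µM. Compound doses, the number of donor pigs and whether replicates were separate cultures were not stated in the labels, so p-values measure the spread between these libraries, which may be technical.

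Vitamin K hydroquinone is the cofactor with which the γ-glutamyl carboxylase GGCX turns glutamates of target proteins into γ-carboxyglutamate (Gla), a residue that binds calcium. The reaction leaves vitamin K epoxide, which VKORC1 and its paralog VKORC1L1 reduce again. Dicoumarol, the coumarin of spoiled sweet clover, blocks this step, so that Gla proteins are secreted under-carboxylated. It also inhibits the quinone reductase NQO1. AIFM2, known as the ferroptosis suppressor FSP1, reduces vitamin K and ubiquinone by a route that coumarins block poorly. Outside the liver the main Gla proteins include matrix Gla protein (MGP), which restrains calcification, and GAS6 and protein S (PROS1). GAS6 is a ligand of the receptor tyrosine kinases TYRO3, AXL and MERTK (TAM), and protein S of TYRO3 and MERTK. RNA levels were measured here, and carboxylation was not.

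The 3T3-L1 libraries held an estimated 22.7 to 30.7 M reads and the DFAT libraries 44.8 to 70.4 M. Mitochondrial genes took 5.22% to 14.3% of the former and 6.85% to 15.1% of the latter. Values are counts divided by library size factors (normalized counts), given in the order of replicates 1, 2 and 3. Log2 fold changes were computed from log2(normalized count + 1), which understates those of low genes, and carry limma's SE. A gene was called at a Benjamini-Hochberg adjusted p under 0.05 over all genes tested (15723 mouse and 14819 pig genes with a mean of at least 10). All 9 genes passed that minimum in both systems. Of the markers checked against the labels, 8 of 9 for adipocytes and 8 of 8 for fibroblasts passed it in 3T3-L1, and 9 of 9 and 6 of 8 in DFAT. In 3T3-L1 0 of 4 endothelial and 2 of 4 macrophage or leukocyte markers passed (Cd68 with a mean of 32.9 and Csf1r with 14.6), and Ptprc was not listed. In DFAT 1 of 4 passed in each list, PECAM1 (mean 184) and CD68 (mean 71.4), while PTPRC had a mean of 0.0654 and KDR was at 0 throughout. In bulk samples, fewer cells of a type and less RNA per cell cannot be told apart.

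Rosiglitazone changed the most vitamin K genes, and dicoumarol the fewest. In 3T3-L1 cells limma called 0 of the 9 genes with dicoumarol (0% of all genes tested were called; 393 had an unadjusted p under 0.05, and limma-voom also called 0 genes). With the replicate number as a block, 0.502% of all genes (79) and 0 of the 9 were called. Magnolol gave 1 call, a rise, where 1.23% of all genes were called and 1.07% rose. The combination gave 1 rise as well (5.22% called, 3.86% higher). Rosiglitazone gave 7 calls (40.1% of all genes), of which 2 were higher and 5 lower, against 20.3% and 19.9% of all genes. The replicate block added calls for Mgp with magnolol (4.96% of all genes called), Vkorc1l1 and Mgp with the combination (13.5%) and Ggcx with rosiglitazone (49.8%). In DFAT cells dicoumarol gave 1 rise (1.94% of all genes called, 0.911% higher), magnolol 2 rises (4.22% and 2.96%) and the combination 3 rises (10.2% and 6.11%). Rosiglitazone gave 5 calls there (10.8%), 1 higher and 4 lower, against 5.8% and 5.02% of all genes. The median log2 fold change of the 9 genes with rosiglitazone was -0.55 in 3T3-L1 and -0.06 in DFAT, where that of all genes was -0.001 and -0.006. All comparisons with vehicle within a system share the same 3 vehicle libraries.

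**Figure D1:**
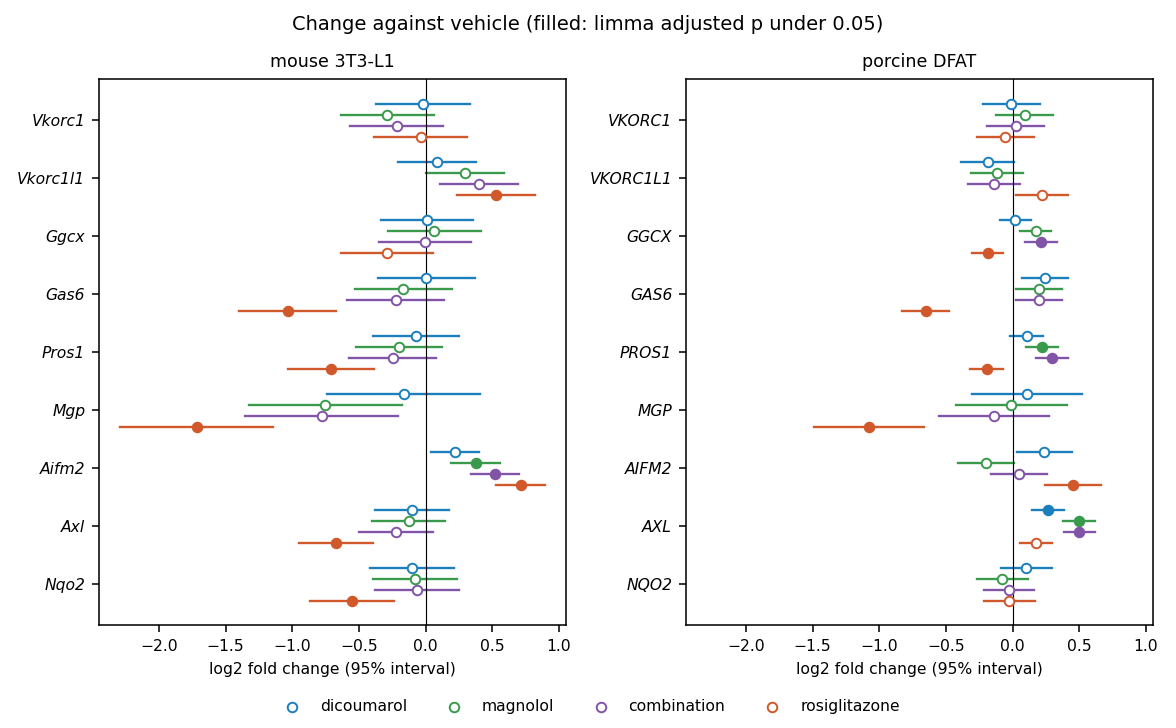
Log2 fold changes of the 9 genes against vehicle (x axis, with 95% intervals) in 3T3-L1 (left) and DFAT (right) cells, colored by treatment. Filled points passed limma's adjusted threshold in the fit without a replicate block. They include 7 for rosiglitazone in 3T3-L1 and 5 in DFAT, where AXL is also filled for dicoumarol, magnolol and the combination.

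Vkorc1, the epoxide reductase that coumarins target, was called in none of the 8 comparisons made within either system. In 3T3-L1 (chromosome 7, 127492235 to 127494789 as deposited, minus strand) its normalized counts were 838, 611 and 1136 with vehicle and 711, 844 and 930.3 with dicoumarol. The vehicle libraries spanned a wider range than those of any other group and enclosed all 3 dicoumarol libraries. The log2 difference was -0.02 (95% interval -0.37 to 0.33). In DFAT cells VKORC1 read 2079.8, 2081 and 1723 with vehicle and 1982, 1977 and 1866 with dicoumarol, a log2 difference of -0.01 (95% interval -0.22 to 0.20). Averaged over cells without and with magnolol, dicoumarol moved the mouse gene by 0.02 (-0.22 to 0.27) and the pig gene by -0.04 (-0.19 to 0.11).

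Its paralog Vkorc1l1, which reduces vitamin K epoxide in many extrahepatic tissues, rose with rosiglitazone in 3T3-L1 cells. The values were 1459.5, 1503 and 1494 with vehicle and 1945, 2122 and 2373 with rosiglitazone, without overlap (log2 fold change 0.53, SE 0.14, limma adjusted p = 0.00661). Dicoumarol gave 1564, 1356 and 1848, on both sides of vehicle, and magnolol gave 1709, 1612 and 2192. With the combination they were 1969, 1664 and 2295, all above vehicle, with a log2 fold change of 0.40 (SE 0.14). This missed the threshold (adjusted p = 0.121). With the replicate number as a block, where 13.5% of all genes were called, it passed (adjusted p = 0.00673). In DFAT cells VKORC1L1 was called in no comparison. Its vehicle values of 3398, 3157 and 4118 overlapped the rosiglitazone values of 3655, 4681 and 4088 (log2 fold change 0.22, SE 0.09, adjusted p = 0.161), and vehicle replicate 3 was the highest of its group. Without that library the difference was 0.33 (adjusted p = 0.0205), and without rosiglitazone replicate 1 it was 0.31 (adjusted p = 0.0489). The pig gene shares 306 bases with GUSB on the opposite strand, which had a mean of 10552, and strand use in counting is not stated.

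Aifm2, the coumarin-resistant vitamin K reductase, was the vitamin K gene that rose with 3 of the 4 treatments in 3T3-L1 cells. Vehicle libraries read 1554, 1591 and 1570.1, and dicoumarol libraries 1785, 1862 and 1846. Magnolol gave 2143, 2051 and 1934. The combination gave 2394, 2275 and 2104, and rosiglitazone 2340.2, 2913 and 2509.9. Every treated library lay above every vehicle library, and the group means ran from vehicle through dicoumarol, magnolol and the combination to rosiglitazone. The combination overlapped both magnolol and rosiglitazone, which did not overlap each other. Rosiglitazone raised it by 0.71 on the log2 scale (SE 0.09, limma adjusted p = 1.23e-05), and the combination raised it by 0.52 (adjusted p = 0.00229). With magnolol it was 0.38 (adjusted p = 0.0433), a call lost when any 1 of the 6 libraries was left out (adjusted p of up to 0.235), with no minimum (0.0600), with no variance trend (0.0945), with only the compared groups (0.0966) and with limma-voom (0.0566). With dicoumarol it was 0.22 (95% interval 0.04 to 0.40, unadjusted p = 0.022, adjusted p = 1.00), which did not pass. The combination exceeded dicoumarol alone by 0.30 (adjusted p = 0.232, 0.0254% of all genes called), which passed with the replicate block (adjusted p = 0.0396, 3.62% of all genes called).

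In DFAT cells AIFM2 rose with rosiglitazone, and the other treatments were not called. The 3 vehicle libraries held 842, 857 and 719 and the rosiglitazone libraries 1106, 1166 and 1036, a log2 fold change of 0.45 (SE 0.10, limma adjusted p = 0.00512). Dicoumarol gave 888, 1001 and 959.6, all above vehicle. Magnolol gave 717, 734 and 648, with replicate 2 inside the vehicle range and the other libraries below it. The combination gave 906, 901 and 707. Adding dicoumarol moved AIFM2 by 0.24 without magnolol and by 0.25 with it, and the average of 0.25 (95% interval 0.10 to 0.39) had an adjusted p of 0.0739, where 3.16% of all genes were called. That average passed without combination replicate 3 (0.30, adjusted p = 0.00970) and with quantile normalization (adjusted p = 0.0368). The mouse gene overlaps Macroh2a2 on the other strand by 596 bases (mean 368), whose log2 fold changes against vehicle ran from -0.13 to 0.02.

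The 250 bases before the start of mouse Aifm2, Gas6 and Axl are shown because these genes moved in opposite directions with the PPARγ agonist in the same cells. They are RefSeq promoters on GRCm38.p6, where 8 of the 9 mouse genes had an entry and Mgp did not. Each is printed 5′ to 3′ on the gene's strand, at chr10:61720399-61720648 (plus), chr8:13494536-13494785 (minus) and chr7:25788734-25788983 (minus). Capitals mark AGGTCA, the element bound by many nuclear receptors, searched on both strands.
Aifm2: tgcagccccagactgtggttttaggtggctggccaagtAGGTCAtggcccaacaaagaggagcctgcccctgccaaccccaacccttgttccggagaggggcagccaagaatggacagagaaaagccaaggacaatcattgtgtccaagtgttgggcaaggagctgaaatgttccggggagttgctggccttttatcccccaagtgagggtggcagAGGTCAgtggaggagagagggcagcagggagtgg
Gas6: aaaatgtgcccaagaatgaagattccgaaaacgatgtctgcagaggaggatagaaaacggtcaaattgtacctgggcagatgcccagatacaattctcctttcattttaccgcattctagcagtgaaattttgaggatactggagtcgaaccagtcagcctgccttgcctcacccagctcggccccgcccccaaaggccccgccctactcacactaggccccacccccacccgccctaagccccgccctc
Axl: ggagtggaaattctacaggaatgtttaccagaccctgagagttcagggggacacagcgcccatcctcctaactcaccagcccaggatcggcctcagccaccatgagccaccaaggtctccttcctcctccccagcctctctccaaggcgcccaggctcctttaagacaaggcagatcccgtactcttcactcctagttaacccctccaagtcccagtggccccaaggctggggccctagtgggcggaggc
Aifm2 held 2 copies of AGGTCA, as did 1.36% of all 32851 mouse promoters of this length, counting those with at least 2. At least 1 copy was present in 14.0% of all promoters, and among the other vitamin K genes in 1 of the Nqo2 windows. DR1, the direct repeat of AGGTCA with 1 spacing base that PPARγ dimers bind, was in none of the 9 windows of these genes and in 0.0335% of all. TGACNNNGC, the core of the antioxidant response element, was in none of the 9 windows and in 10.2% of all. A match describes letters, not binding.

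Nqo2, a quinone reductase that uses dihydronicotinamide riboside, fell with rosiglitazone in 3T3-L1 cells. Vehicle gave 1012, 1135 and 1233 and rosiglitazone 652, 795 and 869, without overlap (log2 fold change -0.55, SE 0.15, limma adjusted p = 0.00772). The other treatments gave 945 to 1306, around the vehicle range. The whole mouse gene lies inside Serpinb6a on the opposite strand. Serpinb6a had a mean of 5986 and also fell with rosiglitazone (-0.72, adjusted p = 0.000185), and its part in the Nqo2 values was not tested. In DFAT cells NQO2 was called in no comparison. Its dicoumarol libraries (1841, 1893 and 1806) were above its vehicle libraries (1748, 1729 and 1684), with a log2 difference of 0.10 (SE 0.09, adjusted p = 0.796).

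Ggcx, the carboxylase itself, moved little. In 3T3-L1 cells the values were 889.9, 939.8 and 1186 with vehicle and 857, 909 and 1305 with dicoumarol, where replicate 3 was the highest in both groups. Their log2 difference was 0.01 (95% interval -0.33 to 0.36). Rosiglitazone gave 734, 807 and 921, a log2 difference of -0.29 (adjusted p = 0.175) that passed with the replicate block (adjusted p = 0.00446, 49.8% of all genes called). In DFAT cells GGCX (chromosome 3, 59202429 to 59218145 as deposited, plus strand) read 22657, 22217 and 21139 with vehicle and 22746, 22698 and 21498 with dicoumarol. Magnolol gave 25021, 23773 and 25615 and the combination 25229.5, 24796 and 26490.3, all above vehicle. Rosiglitazone gave 19967, 18662 and 19324, all below.

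The DFAT carboxylase transcript thus rose by 0.21 on the log2 scale when both compounds were given (SE 0.06, limma adjusted p = 0.0206). It fell with rosiglitazone (-0.19, SE 0.06, adjusted p = 0.0380). With magnolol alone it did not pass (0.17, adjusted p = 0.102). The rise did not pass without vehicle replicate 3 (adjusted p = 0.0793), combination replicate 1 (0.0519) or combination replicate 3 (0.0813), or in a fit of the compared groups alone (0.0892). The fall did not pass without vehicle replicate 1 (0.144), vehicle replicate 2 (0.108), rosiglitazone replicate 2 (0.0843) or rosiglitazone replicate 3 (0.0974), with quantile normalization (0.183), or in a fit of the compared groups alone (0.200).

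**Figure D2:**
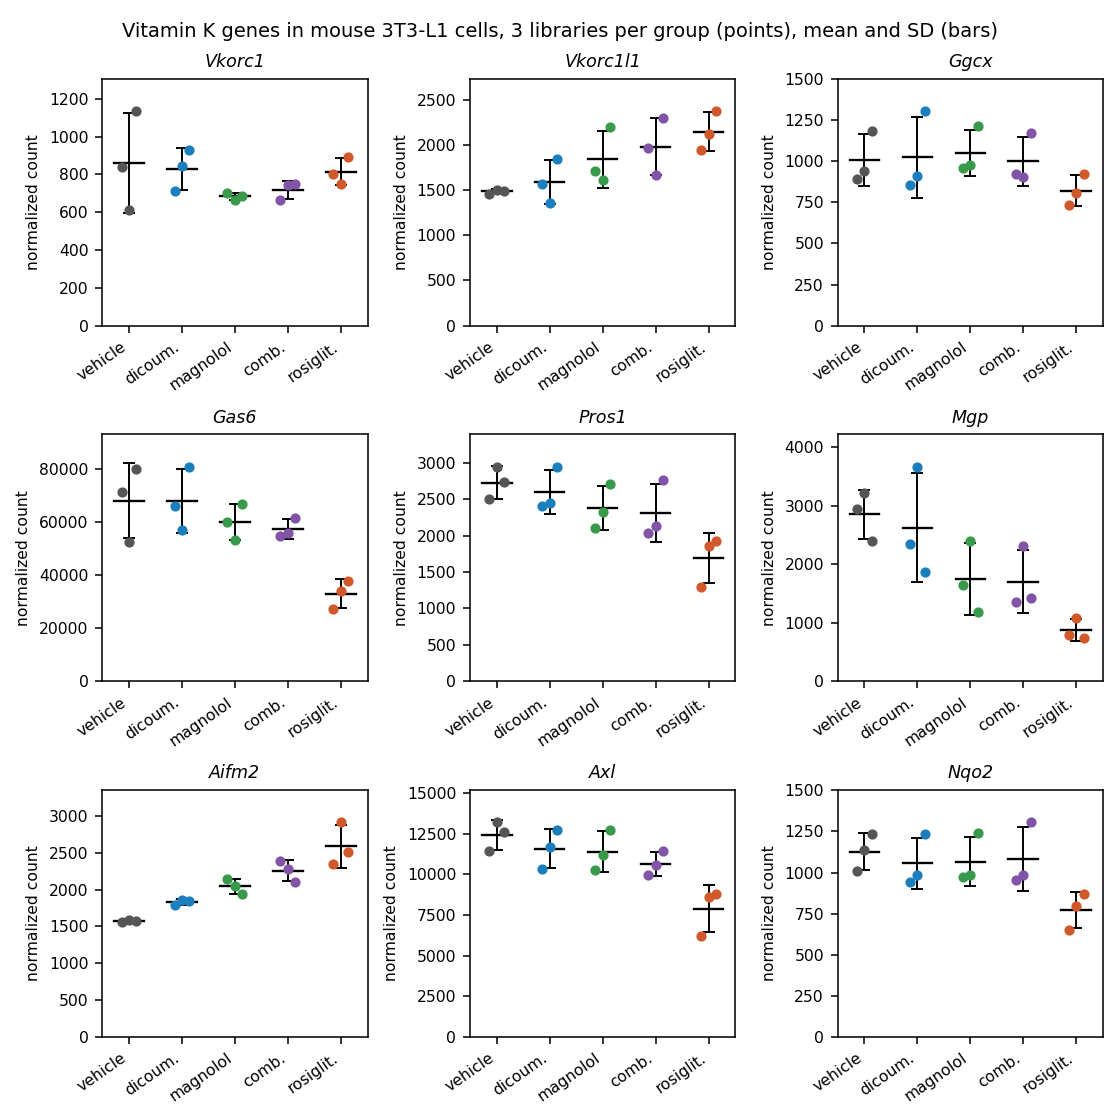
Normalized counts (y axis, from 0) of the 9 genes in 3T3-L1 cells by treatment group. Points are libraries, bars the mean and SD of 3; Mgp spans 734 to 1084 with rosiglitazone and 2393 to 3217 with vehicle, while Aifm2 rises above its narrow vehicle range in every treated library.

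The 3 Gla protein transcripts Gas6, Pros1 and Mgp were lower with rosiglitazone in both systems. Mgp had the widest range of group means among the 9 genes in each. In 3T3-L1 cells (chromosome 6, 136849433 to 136852821 as deposited, minus strand) the values were 2948, 3217 and 2393 with vehicle and 799, 1084 and 734 with rosiglitazone. The groups were far apart, at a log2 fold change of -1.72 (SE 0.27, limma adjusted p = 0.000128), which is 0.304 of vehicle. Magnolol gave 1651, 2406 and 1191 and the combination 1358, 2319.8 and 1419, with replicate 2 the highest in each group. Their log2 differences were -0.75 (adjusted p = 0.295) and -0.78 (adjusted p = 0.120). With the replicate block both passed (adjusted p = 0.000689 and 0.000205, where 4.96% and 13.5% of all genes were called), as did combination against dicoumarol (-0.62, adjusted p = 0.557 without the block and 0.00565 with it). Without combination replicate 2 the combination difference was -1.03 (adjusted p = 0.0479), and with only the compared groups it passed as well (0.0378). Dicoumarol gave 2344, 3670.0 and 1874, overlapping vehicle.

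In DFAT cells MGP read 5730.5, 8159 and 8881 with vehicle and 3016, 3569 and 4127 with rosiglitazone. The groups did not overlap, and the log2 fold change was -1.07 (SE 0.20, limma adjusted p = 0.00118). Magnolol (5187, 8415 and 9333), dicoumarol (6986, 8372 and 8839) and the combination (5598, 7073 and 7872) all overlapped vehicle. Their log2 differences were -0.01, 0.11 and -0.14.

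Gas6, the TAM receptor ligand named for its induction by growth arrest, was also lower with rosiglitazone in both systems. In 3T3-L1 cells (chromosome 8, 13515374 to 13544490 as deposited, minus strand) vehicle gave 71499.7, 52489.5 and 80081 and rosiglitazone 27074, 34091 and 37949. Those groups did not overlap, and the log2 fold change was -1.03 (SE 0.17, limma adjusted p = 0.000198). Dicoumarol gave 66029, 56830.2 and 80866, a range inside and just past that of vehicle (log2 difference 0.005, 95% interval -0.36 to 0.37). In DFAT cells GAS6 was 7558, 8225 and 6539.6 with vehicle and 4988, 4766 and 4396 with rosiglitazone, a log2 fold change of -0.65 (SE 0.08, adjusted p = 2.72e-05). Dicoumarol gave 9077, 8642 and 8557 there, all above vehicle. The log2 difference of 0.24 (SE 0.08) had an adjusted p of 0.213 and was not called. Magnolol and the combination lay at 0.20 each (adjusted p = 0.216 and 0.144).

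Pros1, protein S, an anticoagulant cofactor and TAM ligand, fell with rosiglitazone in both systems and rose with magnolol in DFAT cells. In 3T3-L1 cells vehicle gave 2497, 2947 and 2735 and rosiglitazone 1297, 1855 and 1922 (log2 fold change -0.71, SE 0.15, limma adjusted p = 0.00168). The groups did not overlap, and dicoumarol, magnolol and combination libraries (2036 to 2943) lay in and below the vehicle range. In DFAT cells PROS1 read 4801, 5253 and 5461 with vehicle, 5305, 5686 and 5675 with dicoumarol, 5864, 6212 and 5971 with magnolol and 6140.2, 6313 and 6552 with the combination. Magnolol and combination libraries all lay above vehicle, and the rosiglitazone libraries (4462, 4420.2 and 4657) all lay below it.

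PROS1 in DFAT was 0.29 above vehicle with the combination (limma adjusted p = 0.00250, SE 0.06) and 0.22 with magnolol (adjusted p = 0.0376), and the fall with rosiglitazone was -0.19 (adjusted p = 0.0361). The magnolol call did not pass without vehicle replicate 1 (adjusted p = 0.199), vehicle replicate 2 (0.0615) or any magnolol library (0.0749, 0.135 and 0.0919 without replicates 1, 2 and 3). Nor did it pass with no variance trend (0.0665) or in a fit of the compared groups alone (0.111). The rosiglitazone call did not pass without vehicle replicate 2 (0.116), vehicle replicate 3 (0.133) or any rosiglitazone library (0.0875, 0.0726 and 0.0518), with no variance trend (0.0578) or in a fit of the compared groups alone (0.194).

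Fat-cell markers also moved with rosiglitazone. The summed normalized counts of 9 adipocyte markers were 44205 to 62114 in 3T3-L1 vehicle libraries and 321411 to 565845 with rosiglitazone, and those of 8 fibroblast markers were 238891 to 263495 and 139174 to 180879. In DFAT the adipocyte sums were 18496 to 21430.3 with vehicle and 76458 to 83529.8 with rosiglitazone, and the fibroblast sums 1651690 to 1800600 and 1264300 to 1403450. DFAT adipocyte sums were above vehicle with dicoumarol (23459 to 25098), magnolol (36187 to 44615) and the combination (56945 to 64249) too. With those treatments GAS6, PROS1 and MGP were not called lower, and PROS1 was called higher with magnolol and the combination. In 3T3-L1 the adipocyte sums were 62263 to 96536 with dicoumarol, 89035 to 132975 with magnolol and 114981 to 180987 with the combination. There the group means of Gas6, Pros1, Mgp and Axl all fell from vehicle through dicoumarol, magnolol and the combination to rosiglitazone. Neighbouring groups overlapped, except the combination and rosiglitazone. In the fit without a block only the rosiglitazone falls were called. Osteoblast or chondrocyte markers also summed lower in 3T3-L1 with rosiglitazone (2436 to 2904, against 4105 to 4272 with vehicle). That sum was mostly Sox9 (mean 2984) and Runx2 (616). Alpl had a mean of 32.0, and Sp7, Bglap and Acan (0.262) were under the minimum. In DFAT, where MGP also fell, the sums overlapped (3702 to 4578 with rosiglitazone, 4067 to 4614 with vehicle). There 0 of the 4 tested markers were called with rosiglitazone. The part of these shifts in the falls of Gas6, Pros1, Mgp, Axl and Nqo2 and in the rises of Aifm2 and Vkorc1l1 was not tested.

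Genes whose levels followed Mgp and Gas6 most closely were sought over the 15 libraries of each system, as a description, since the libraries share groups. For Mgp in 3T3-L1 cells these were Cdo1 (cysteine dioxygenase, r = 0.983), Tifa (0.972) and Pmepa1 (0.970), among 11577 genes with a mean of at least 100. For Gas6 they were Steap3 (0.968), Irgm1 (0.965) and Cndp2 (0.965). In DFAT cells MGP ran closest to SIX4 (0.933), PPFIBP1 (0.925) and ACVR2A (0.925), and GAS6 to ADGRA2 (0.971), C1QTNF6 (0.970) and ROR2 (0.969), among 9931 genes.

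Axl, the receptor for GAS6, moved in different directions in the 2 systems. In DFAT cells (chromosome 6, 49245673 to 49277914 as deposited, plus strand) AXL read 5678, 5604 and 6097 with vehicle. Dicoumarol gave 6919.7, 6611 and 7343, magnolol 8402, 7959.8 and 8169, and the combination 8162, 8357 and 8072. Rosiglitazone gave 6247, 6532 and 6851. Every treated library was above every vehicle library, and the magnolol and combination libraries were above all others.

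AXL rose with magnolol by 0.50 (SE 0.06, limma adjusted p = 2.53e-05), a fold of 1.41, and with the combination by 0.50 (adjusted p = 1.01e-05). With dicoumarol it rose by 0.26 (adjusted p = 0.0180), and this was the only vitamin K gene called for dicoumarol in either system. That call did not pass without vehicle replicate 1 (adjusted p = 0.0929), vehicle replicate 2 (0.0782), dicoumarol replicate 1 (0.0710) or dicoumarol replicate 3 (0.136). The combination exceeded dicoumarol alone by 0.24 (adjusted p = 0.0316, against 2.35% of all genes called), and exceeded magnolol alone by 0.004 (95% interval -0.12 to 0.12). The first of these did not pass when any 1 of 5 of the 6 libraries was left out, combination and dicoumarol replicates 1 and 2 and combination replicate 3 (0.0731 to 0.188), or with no variance trend (0.0684). Dicoumarol thus moved AXL by 0.26 without magnolol and 0.004 with it, and the interaction of -0.26 (SE 0.08) was not called (adjusted p = 0.697, 0.081% of all genes called). With rosiglitazone AXL was 0.18 above vehicle (adjusted p = 0.0564). This passed without vehicle replicate 3 (adjusted p = 0.0308), without rosiglitazone replicate 1 (0.0401) and with quantile normalization (0.0309).

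In 3T3-L1 cells Axl instead fell with rosiglitazone. Vehicle gave 11429.5, 13210.0 and 12612 and rosiglitazone 6202, 8639 and 8799, without overlap (log2 fold change -0.67, SE 0.13, limma adjusted p = 0.000731). Dicoumarol and magnolol libraries (10251 to 12752) reached into the vehicle range, and those of the combination (9958, 10550.1 and 11419) ended just below it. The log2 differences were -0.10, -0.13 and -0.22, none called. The difference between systems, as DFAT minus 3T3-L1 log2 fold change, was called for magnolol, the combination and rosiglitazone (0.63, 0.72 and 0.85, limma adjusted p = 0.0135, 0.00128 and 4.57e-05), where 3.28%, 11.6% and 38.7% of shared genes were called. For dicoumarol it was 0.37 (adjusted p = 0.718).

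Contractile genes and COL1A1 rose alongside AXL in DFAT cells with dicoumarol, magnolol and the combination. The 3 smooth muscle markers (Myh11, Cnn1 and Acta2) summed to 56554 to 72173 in vehicle libraries and 65582 to 77811 in dicoumarol libraries. The sums were 91154 to 98426 in magnolol, 104589 to 118823 in combination and 79929 to 129826 in rosiglitazone libraries. With magnolol and with the combination 3 of 3 were called higher (2.96% and 6.11% of all genes). With dicoumarol and with rosiglitazone 2 of 3 were (0.911% and 5.8%). Fibroblast marker sums were 1651690 to 1800600 with vehicle, 2269940 to 2370630 with dicoumarol, 2582080 to 2954280 with magnolol and 2558860 to 3038380 with the combination. With rosiglitazone they were below vehicle, at 1264300 to 1403450. These sums are mostly COL1A1 and COL3A1, and the single markers went both ways. Of the 6 tested, 1 was called higher with dicoumarol (COL1A1) and 2 with magnolol and with the combination (COL1A1 and COL3A1), while DCN, LUM and PDGFRA were called lower with all 3. The skeletal muscle factors MYOD1, MYOG and MYF5 summed to at most 4.21 in any library. The part of these shifts in the AXL result was not tested.

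**Figure D3:**
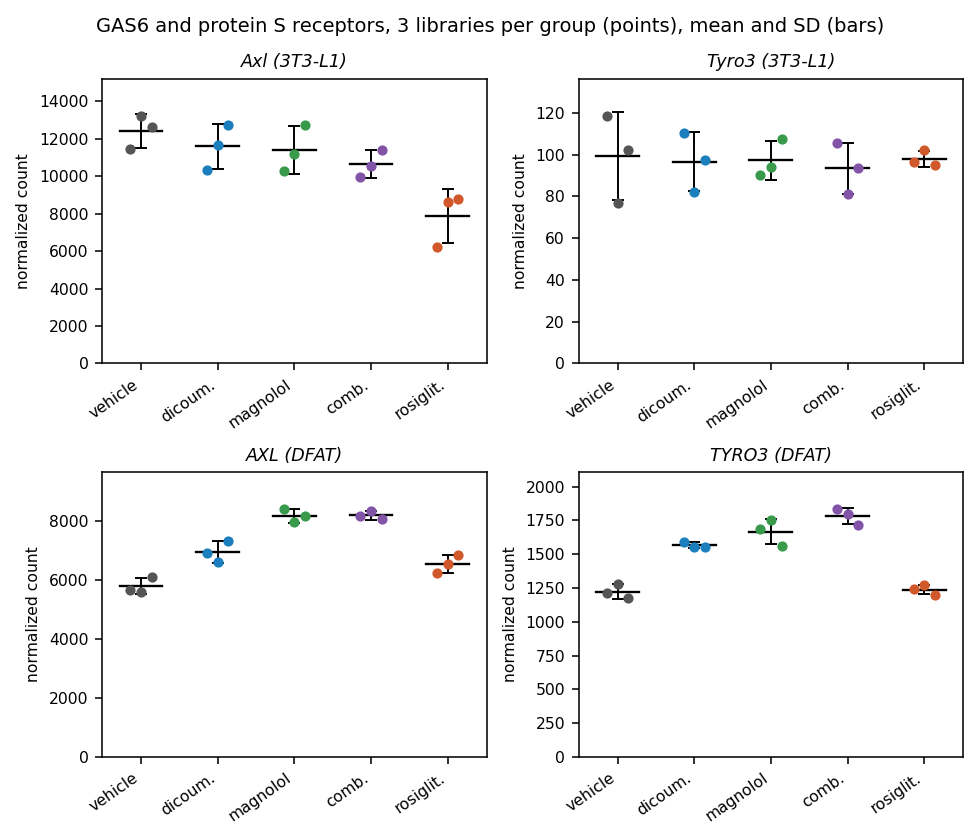
Normalized counts (y axis, from 0) of Axl and Tyro3 in 3T3-L1 (top) and DFAT (bottom) cells by treatment. Points are libraries, bars the mean and SD of 3; in DFAT both receptors lie above vehicle with dicoumarol, magnolol and the combination, while in 3T3-L1 Tyro3 stays between 77.0 and 118.

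Of the other receptors and partners of Gla proteins, 5 of 6 passed the minimum in DFAT and 4 of 6 in 3T3-L1. TYRO3, a receptor of both GAS6 and protein S, rose in DFAT together with AXL. Its values were 1217, 1281 and 1174 with vehicle, 1593, 1552 and 1555 with dicoumarol, 1689, 1751 and 1564 with magnolol, and 1832, 1799 and 1716 with the combination. All treated libraries of these groups lay above vehicle. The log2 fold changes were 0.36, 0.45 and 0.54 (limma adjusted p = 0.00331, 0.000199 and 1.01e-05). Rosiglitazone gave 1242, 1274 and 1201, in the vehicle range. MERTK, the third receptor of the family, was close to the minimum in DFAT (11.3 ± 5.45 with vehicle, SD, n = 3) and rose to 25.9 ± 8.36 with the combination (1.18, adjusted p = 0.0310) and 25.5 ± 4.55 with rosiglitazone (1.19, adjusted p = 0.0271). TFPI, the tissue factor pathway inhibitor, fell with rosiglitazone from 34.3 ± 1.84 to 11.1 ± 4.55 (-1.60, adjusted p = 0.00160). In 3T3-L1 cells 0 of the 4 tested partners were called with dicoumarol, magnolol or the combination (0%, 1.23% and 5.22% of all genes called). With rosiglitazone, where 19.9% of all genes were lower, 1 was lower, the endothelial protein C receptor Procr (-0.71, adjusted p = 0.00218).

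Among 13 genes of quinone and vitamin K handling, 10 were tested in 3T3-L1 and 7 in DFAT. In DFAT cells 1 was called with dicoumarol, NQO1, the quinone reductase that dicoumarol inhibits. It read 2229, 2305 and 2328 with vehicle and 1673, 1775 and 1744 with dicoumarol, without overlap (log2 fold change -0.40, SE 0.08, limma adjusted p = 0.00954). It read 1185, 1499 and 1278 with magnolol (-0.80, adjusted p = 5.52e-06), and 1265, 1352 and 1261 with the combination (-0.82, adjusted p = 1.62e-06).

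In 3T3-L1 cells Nqo1 lay at 1306 ± 152 with vehicle and 1387 ± 254 with dicoumarol (SD, n = 3) and was not called. There the lipoprotein receptor Scarb1, which also takes up fat-soluble vitamins, rose in 3 comparisons with vehicle. Its 260.1, 252 and 301 with vehicle became 628, 538 and 744 with magnolol (log2 fold change 1.22, limma adjusted p = 0.00122). The combination gave 843, 619 and 829 (1.48, adjusted p = 7.56e-05) and rosiglitazone 1735, 1585 and 1717 (2.63, adjusted p = 2.43e-08). The combination also exceeded dicoumarol alone (0.95, adjusted p = 0.0313). Cbr1, a carbonyl reductase, rose with the combination (0.56, adjusted p = 0.0441) and rosiglitazone (1.21, adjusted p = 1.74e-05). With rosiglitazone 5 of the 10 were higher and 2 lower in 3T3-L1, against 0 higher and 1 lower of 7 in DFAT, again NQO1 (-0.35, adjusted p = 0.00616). Over all genes 20.3% were higher and 19.9% lower in 3T3-L1, and 5.8% and 5.02% in DFAT, and the difference between the systems was not tested for this list.

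**Figure D4:**
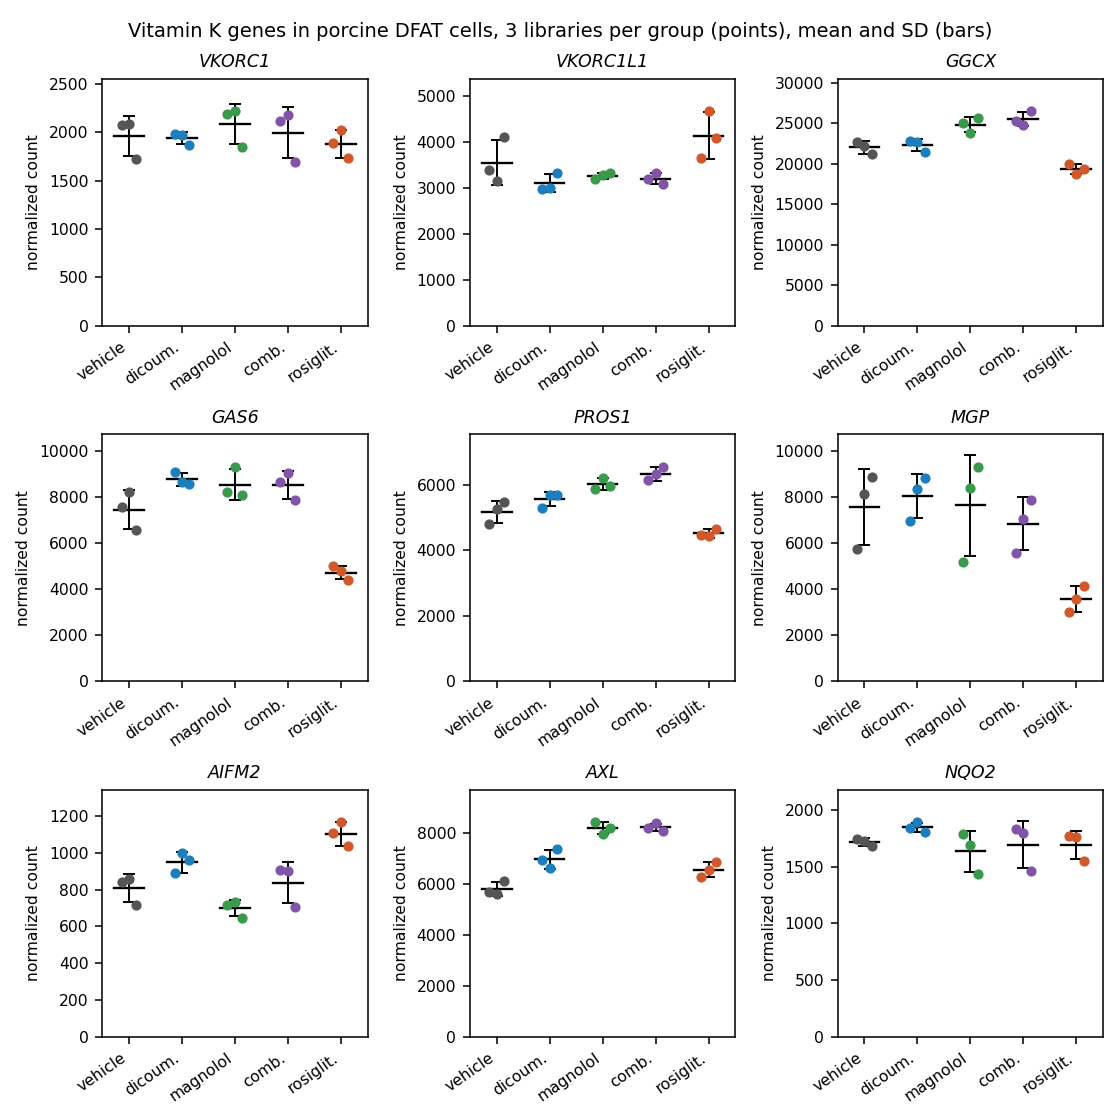
Normalized counts (y axis, from 0) of the 9 genes in DFAT cells by treatment group, with libraries as points and the mean and SD of 3 as bars. AXL is lowest with vehicle (5604 to 6097), and GAS6 and MGP are lowest with rosiglitazone (4396 to 4988 and 3016 to 4127).

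The dicoumarol effect on the 9 genes can be read 3 ways: alone against vehicle, added to magnolol, and as the average of both. In 3T3-L1 cells 0 of 9 genes were called in each, and 0 of all genes (393, 336 and 895 genes had an unadjusted p under 0.05; limma-voom called 0 in each). With the replicate block 79, 0 and 185 genes were called (0.502%, 0% and 1.18% of all genes), none of them among the 9. The largest average among the 9 was that of Aifm2, at 0.18 (95% interval 0.05 to 0.31, adjusted p = 0.805). The other 8 averages lay between -0.10 and 0.10. In DFAT cells dicoumarol added to magnolol gave 0 calls among the 9 (0.621% of all genes called; limma-voom called 97 genes, none of the 9). The average gave 0 calls among the 9 as well (3.16% of all genes), with AIFM2 at 0.25 and AXL at 0.13 (95% interval 0.05 to 0.22, adjusted p = 0.0897) the highest.

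**Figure D5:**
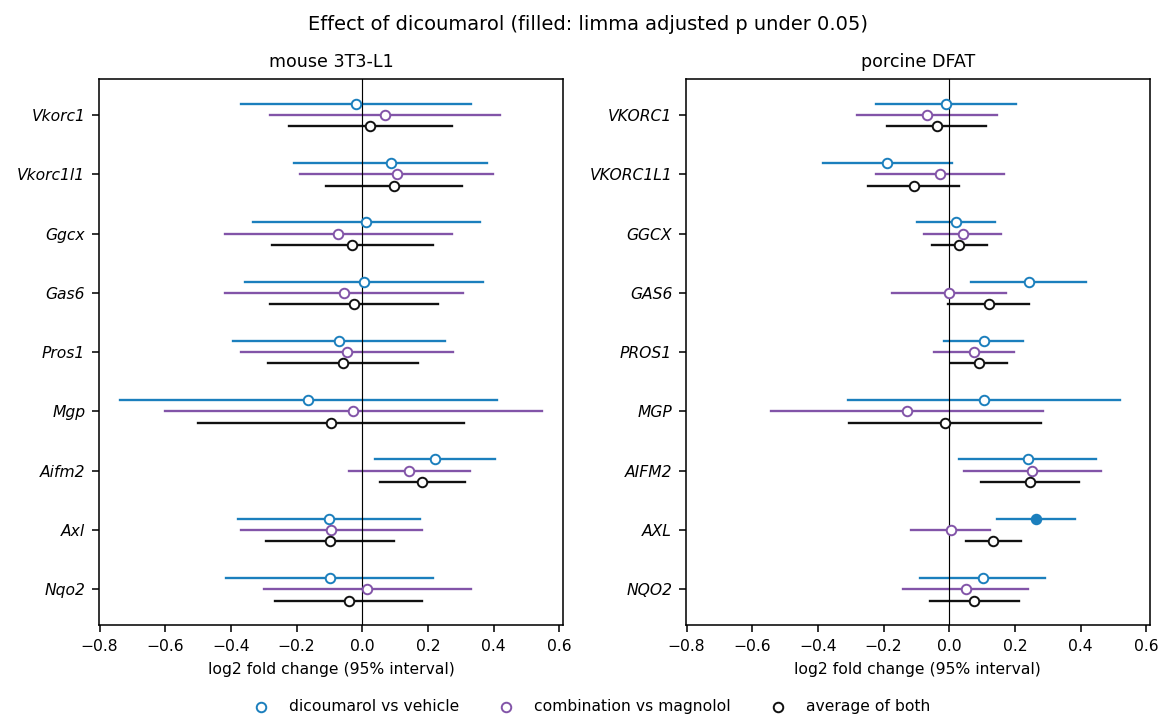
Effect of dicoumarol on the 9 genes as log2 fold change (x axis, with 95% intervals), alone, on top of magnolol and averaged, in 3T3-L1 (left) and DFAT (right) cells. The only filled point, past limma's adjusted threshold, is DFAT AXL with dicoumarol alone at 0.26; the average for Vkorc1 is 0.02 in 3T3-L1 and -0.04 in DFAT.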

How the data were processed

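Expression was measured by bulk RNA-seq of poly(A) RNA in 30 libraries, prepared with a stranded dUTP kit, per the labels' protocols, and whether strand was used in counting is not stated. The submitters' processing notes name bcl2fastq 2.19.1.403, STAR, DESeq2 and GRCm38, with no versions for STAR and DESeq2 and no other build for the pig. The deposited values are signal: gene counts divided by DESeq2 size factors by the authors, per the labels. Coordinates are as deposited (end = listed stop less 1). Of 24070 mouse genes matched to GENCODE M21 (GRCm38), 2.18% had the same start, and all 9 genes had another start, so the build of the deposited coordinates is not settled. Within 0.02, 83.7% to 85.6% (3T3-L1) and 90.9% to 92.2% (DFAT) of low values, up to 20 reads, were whole, so whole reads were not recovered and no test on raw counts was run. The limma-voom alternative was given the normalized counts with the same library size for every library, so its weights do not reflect true depth.

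Genes with a mean of at least 10 were fitted with limma 3.58.1 (R 4.3.3) on log2(value + 1), all 5 groups in 1 model, with a variance trend; tests were two-sided, and p-values were adjusted by Benjamini-Hochberg over each table, at 0.05. Differences between systems were fitted jointly over genes with a shared symbol (12155 before the minimum). The fit was tested on simulated data. The genes and lists were chosen with earlier results of these data known. All 9 genes were named. Genes of the pathway lists were named where called against vehicle, at most 4 a comparison by largest change, with their counterparts in the other system for Tyro3 and Nqo1. Procr, NQO1 with rosiglitazone, Scarb1 against dicoumarol, PRRG4, ACSL4 and the cell type markers were named in addition, after their values were seen. A gene that the rule would name is not reported here. The 3 genes most like a member (mean at least 100) were named for the 2 members with the widest range of group means. Alternatives were a pseudocount of 5, no minimum, quantile normalization, no variance trend, only the compared groups, limma-voom, a replicate block and leaving out each library. The labels number replicates 1 to 3 in every group. In 3T3-L1 all 30 same-number pairs of libraries deviated together, with correlations over 0.1 (lowest 0.106, median 0.300, against a median of -0.142 for different numbers). The numbers were thus taken as pairs, but the main fit holds no block. Blocked values therefore stand beside the 3T3-L1 results whose call they change. The differences between systems were fitted without a block only. In DFAT this held only among the magnolol, combination and rosiglitazone libraries. Promoters were searched with Python 3.11.15.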

Additional observations from a re-analysis of the deposited data

Results flagged for a closer look

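The effects of the compounds in DFAT and 3T3-L1 cells were compared by limma's test of the difference itself, adjusted over all shared genes. Of the 9 genes, 0 were called for dicoumarol, 2 for magnolol, 4 for the combination and 3 for rosiglitazone. Of all shared genes, 0.0961%, 3.28%, 11.6% and 38.7% were called, so the rosiglitazone count is not above the share of all genes. Values are DFAT minus 3T3-L1 log2 fold changes, each taken within its own system against 3 vehicle libraries.

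For magnolol, Aifm2 differed by -0.58 (0.38 in 3T3-L1, -0.20 in DFAT, limma adjusted p = 0.0127) and Axl by 0.63 (-0.13 and 0.50, adjusted p = 0.0135), where 3.28% of shared genes were called. All 3 magnolol libraries lay above vehicle for Aifm2 in 3T3-L1 and for AXL in DFAT. The Axl difference did not pass without 3T3-L1 magnolol replicate 1 (adjusted p = 0.0560).

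For the combination, where 11.6% of shared genes were called, 4 genes differed. Axl differed by 0.72 (-0.22 in 3T3-L1, 0.50 in DFAT, limma adjusted p = 0.00128), which passed without each of the 12 libraries. Aifm2 differed by -0.47 (0.52 and 0.05, adjusted p = 0.0189), which did not pass without DFAT vehicle replicate 1 (0.0538), DFAT vehicle replicate 2 (0.0551), 3T3-L1 combination replicate 1 (0.0633) or DFAT combination replicate 3 (0.0798). Pros1 differed by 0.54 (-0.25 and 0.29, adjusted p = 0.0366), a call lost without any of 9 of the 12 libraries, all but 3T3-L1 vehicle replicate 1, 3T3-L1 combination replicate 3 and DFAT vehicle replicate 3 (0.0514 to 0.119). Vkorc1l1 differed by -0.54 (0.40 and -0.14, adjusted p = 0.0432), a call lost without any of 10 of the 12, all but DFAT vehicle replicate 2 and 3T3-L1 combination replicate 2 (0.0551 to 0.139). Gas6 differed by 0.42 (adjusted p = 0.171) and passed without 3T3-L1 vehicle replicate 2 (0.60, adjusted p = 0.0319).

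For rosiglitazone, where 38.7% of shared genes were called, 3 genes differed. Axl differed by 0.85 (-0.67 in 3T3-L1, 0.18 in DFAT, limma adjusted p = 4.57e-05), which passed without each of the 12 libraries. Pros1 differed by 0.51 (-0.71 and -0.19, adjusted p = 0.0187), which did not pass without DFAT vehicle replicate 1 (0.0507), 3T3-L1 vehicle replicate 2 (0.0524) or 3T3-L1 rosiglitazone replicate 1 (a difference of 0.33, adjusted p = 0.0870). Nqo2 differed by 0.53 (-0.55 and -0.02, adjusted p = 0.0233), which did not pass without 3T3-L1 vehicle replicate 3 (0.0601), 3T3-L1 rosiglitazone replicate 1 (0.0879) or DFAT rosiglitazone replicate 2 (0.0502). Gas6 (0.38, adjusted p = 0.121) passed without 3T3-L1 vehicle replicate 2 (0.56, adjusted p = 0.0187), and Aifm2 (-0.26, adjusted p = 0.123) without DFAT vehicle replicate 3 (-0.34, adjusted p = 0.0497). Species, medium and cell origin differ together between the systems and cannot be told apart.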

How the results depend on the processing

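Of 128 counts of vitamin K genes called under settings other than leaving out a library, 111 stayed within 1.5 times the main count and 17 moved. Of 2664 values of single genes under all alternatives, 0 called values changed sign, 75 lost and 28 gained a call. The 1 call for magnolol in 3T3-L1 became 0 with no filter, 0 with no variance trend, 0 with only the compared groups, 0 with limma-voom and 0 without any library (0 to 0). With a replicate block it became 2, the combination's 1 became 3, and combination against dicoumarol went from 0 to 2, all in 3T3-L1. The block also added Ggcx with rosiglitazone there. With only the compared groups the combination gave 2, and 1 to 2 without a library.

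In DFAT, where the numbers are not taken as pairs against vehicle, the replicate block gave 2 calls for dicoumarol (1 without it), 4 for magnolol (2), 3 for combination against dicoumarol (1) and 2 for the dicoumarol average (0). That average also gave 2 with quantile normalization. Shares of all genes called under these settings are not given for DFAT, so the counts have no background beside them. The genes that the block added were GAS6 for dicoumarol (limma adjusted p = 0.0194) and GGCX and GAS6 for magnolol (0.0386 and 0.0350). For combination against dicoumarol they were GGCX and PROS1 (0.0293 and 0.0171), and for the average AIFM2 and AXL (0.00622 and 0.0242). The block also added GAS6 for the combination (0.0221) and AXL for rosiglitazone (0.0177). No variance trend gave 1 for magnolol and 0 for combination against dicoumarol. Only the compared groups gave 1 for magnolol and 3 for rosiglitazone (5 in the main fit of all groups).

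Leaving out a library gave 0 to 1 call in DFAT for dicoumarol, 1 to 2 for magnolol, 2 to 3 for the combination, 3 to 6 for rosiglitazone, 0 to 1 for combination against dicoumarol and 0 to 1 for the average. The differences between systems gave 1 to 2 calls for magnolol, 1 to 3 for the combination and 1 to 4 for rosiglitazone. The cause was not tested, beyond the fewer libraries these fits hold.

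Across genes, SEs against vehicle had medians of 0.146 (3T3-L1) and 0.0992 (DFAT), so small shifts of a transcript such as Vkorc1 were not detectable. Protein, carboxylation and vitamin K were not measured.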

Other observations

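Most other Gla proteins were hardly detected. Of 15 on the list, 5 passed the minimum in 3T3-L1 and 6 in DFAT. Coagulation factor VII (F7) had a mean of 4.02 normalized counts in 3T3-L1 and was at 0 in DFAT, and osteocalcin (Bglap) had means of 0.895 and 5.99. Postn, periostin, a matrix protein on the list, read 51416 ± 5582 with vehicle and 44773 ± 5458 with rosiglitazone in 3T3-L1 (SD, n = 3), and was not called. The transmembrane Gla protein Prrg4 fell with rosiglitazone in 3T3-L1 from 48.3 ± 9.34 (-0.94, limma adjusted p = 0.0211), and in DFAT PRRG1 rose (0.39, adjusted p = 0.00669) and PRRG4 fell (-0.30, adjusted p = 0.0423).

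The cystine transporter Slc7a11, which like Aifm2 guards against ferroptosis, moved oppositely in the 2 systems with rosiglitazone. It fell in 3T3-L1 from 345 ± 74.7 (-0.89, limma adjusted p = 0.00167) and rose in DFAT (0.68, adjusted p = 0.00616), while Aifm2 rose in both. The difference between the systems was not tested for Slc7a11 or the list. Of the ferroptosis list 5 genes were tested in each system. With rosiglitazone 1 was higher and 3 lower in 3T3-L1, where 40.1% of all genes were called, and 2 were higher and 0 lower in DFAT, where 10.8% were. The list holds ACSL4, an enzyme that promotes ferroptosis, which was lower in 3T3-L1 (-0.58, adjusted p = 0.0294) and higher in DFAT (0.25, adjusted p = 0.0128).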
